A study of Mus musculus with 2 samples.

Results

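The ectodysplasin and NF-kB pathway was followed through the skin of E14.5 mouse embryos by 8 genes: the ligand gene Eda, the receptor genes Edar and Eda2r, the adaptor gene Edaradd, the NF-kB inhibitor gene Nfkbia, the NF-kB subunit gene Relb, and the target genes Ltb and Cxcl10. They are 8 of the 32285 genes counted, chosen by name with earlier results of these data known, as were the gene lists used below. Counts of members or list genes beside the share of all genes are therefore a description. Of the 8 members, 7 had at least 20 UMIs (unique molecular identifiers, here counted transcript copies) in epidermal cells. Dorsolateral and flank skin was profiled by droplet 3′ single-cell RNA sequencing in 1 wildtype and 1 Wntless mutant library, each pooled from 2 to 3 embryos. The mutants came from K14Cre mice bred to Wntless fl/fl mice, and K14Cre acts in keratinocytes. Wntless (Wls) is the carrier that Wnt proteins need for secretion. Wildtype embryos were littermates, and whether they carried Cre or a floxed allele is not given in the sources used here. The 2 pools were handled in parallel (trypsin dissociation, sorting with the dye DAPI) and were run on the same sequencing lane.

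Ectodysplasin A is a ligand of the tumour necrosis factor (TNF) family that is known to signal between skin cells before hair follicles form. Its receptor Edar, held to the adaptor Edaradd, activates the IkB kinase complex, which releases NF-kB dimers such as those with RelA or RelB into the nucleus. Nfkbia encodes IkB-alpha, which holds NF-kB in the cytoplasm and is itself induced by it. In the placode, where the epidermis thickens to begin a hair follicle, Wnt signalling is known to act upstream of Edar, and Shh and Ltb are known to act downstream of it.

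The sequence just before the annotated start is shown for the 3 members with a match to the kappaB consensus, the 10-letter site that NF-kB dimers bind. Below, these 3 were higher in placode cells, as were Edar and Edaradd, which have no match, while Eda, also without one, was lower. Whether a match bears on the level was not tested. Of the 8 members, 7 had an entry in the RefSeq promoter table (build GRCm38.p6), all but Relb. Ltb, Nfkbia and Cxcl10 had a match on either strand within the 250 bases before the start in that table, as did 2382 of 32841 such windows (7.25%). A match is a description of the letters and not a binding site. Each line runs 5′ to 3′ on the gene's strand up to the base before the annotated gene, with the matches in capitals. Match positions are counted from the start in the promoter table. The Ltb line is chr17:35194257-35194438 on the plus strand, 182 bases. For Ltb the start in the promoter table lies inside the annotated gene, so the last 68 of the 250 bases are left out. Counted from that start, and not from the end of the printed line, its match runs from base -87 to base -78 on the opposite strand. The Nfkbia line is chr12:55492648-55492897 on the minus strand, with a match from -29 to -20 on the opposite strand. The Cxcl10 line is chr5:92348890-92349139 on the minus strand, with a match from -159 to -150 and 3 overlapping matches from -104 to -94.
Ltb: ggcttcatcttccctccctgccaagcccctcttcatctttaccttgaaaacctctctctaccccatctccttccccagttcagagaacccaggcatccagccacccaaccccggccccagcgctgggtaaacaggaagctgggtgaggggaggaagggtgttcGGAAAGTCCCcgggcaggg
Nfkbia: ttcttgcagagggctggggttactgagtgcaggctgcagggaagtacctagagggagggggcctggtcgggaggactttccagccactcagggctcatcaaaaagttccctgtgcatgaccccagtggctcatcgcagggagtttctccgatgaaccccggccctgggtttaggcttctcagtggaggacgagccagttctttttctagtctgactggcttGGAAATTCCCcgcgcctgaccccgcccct
Cxcl10: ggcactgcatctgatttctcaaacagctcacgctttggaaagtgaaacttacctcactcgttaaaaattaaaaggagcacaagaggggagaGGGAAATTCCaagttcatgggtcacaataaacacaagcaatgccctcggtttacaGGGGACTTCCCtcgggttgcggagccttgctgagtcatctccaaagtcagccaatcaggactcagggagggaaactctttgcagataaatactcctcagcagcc

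On GRCm38 the ligand gene Eda (ENSMUSG00000059327) lies at chrX:99975606-100400762 on the plus strand, and Edar (ENSMUSG00000003227) at chr10:58600789-58675654 on the minus strand. Ltb (ENSMUSG00000024399) lies at chr17:35194439-35196320 on the plus strand and Relb (ENSMUSG00000002983) at chr7:19606217-19629438 on the minus strand. Cxcl10 (ENSMUSG00000034855), at chr5:92346638-92348889 on the minus strand, is overlapped by Art3 on the other strand, and whether the counting used strand is not given in the sources used here.

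Epidermal cells were the barcodes with at least 4 of 6 epidermal markers (Krt5, Krt14, Krt15, Trp63, Epcam and Perp), 506 of 9065 wildtype and 160 of 10449 mutant barcodes. Their median depth was 15738 UMIs in the wildtype and 24039.5 in the mutant library. These markers chose the cells, so their level is no check of the class. The 6 fibroblast markers, which the rule did not use, summed to 1942 and 1371 CPM (UMIs of a gene per 1e+06 UMIs of the class) against 14802 and 20827 CPM in the cells on the authors' dermal lists. At the edge of the definition, 58 wildtype and 7 mutant cells had exactly 4 markers, and 32 and 7 cells with exactly 3 were left outside. Placode genes (Dkk4, Shh, Fgf20, Bmp2, Lhx2, Wnt10b, Foxi3 and Pthlh) split the wildtype epidermal cells into 148 with none, 169 with 1 or 2 and 189 with 3 or more. The mutant cells fell into 91, 69 and 0, and 65 of those 69 had a Wnt10b UMI. Wls itself stood at 122 CPM in wildtype and 7.28 CPM in mutant epidermal cells, and at 92.0 and 76.7 CPM in dermal list cells. The libraries shared 19 barcode sequences, 3 of them in wildtype epidermal cells.

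With 1 library per genotype no difference between genotypes could be tested. Intervals are at the 95% level and cover the error of counting alone, and a gene is called lower or higher where its CPM differed by at least 1.5-fold. Ratios are on the log2 scale, mutant over wildtype unless stated.

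**Figure D1:**
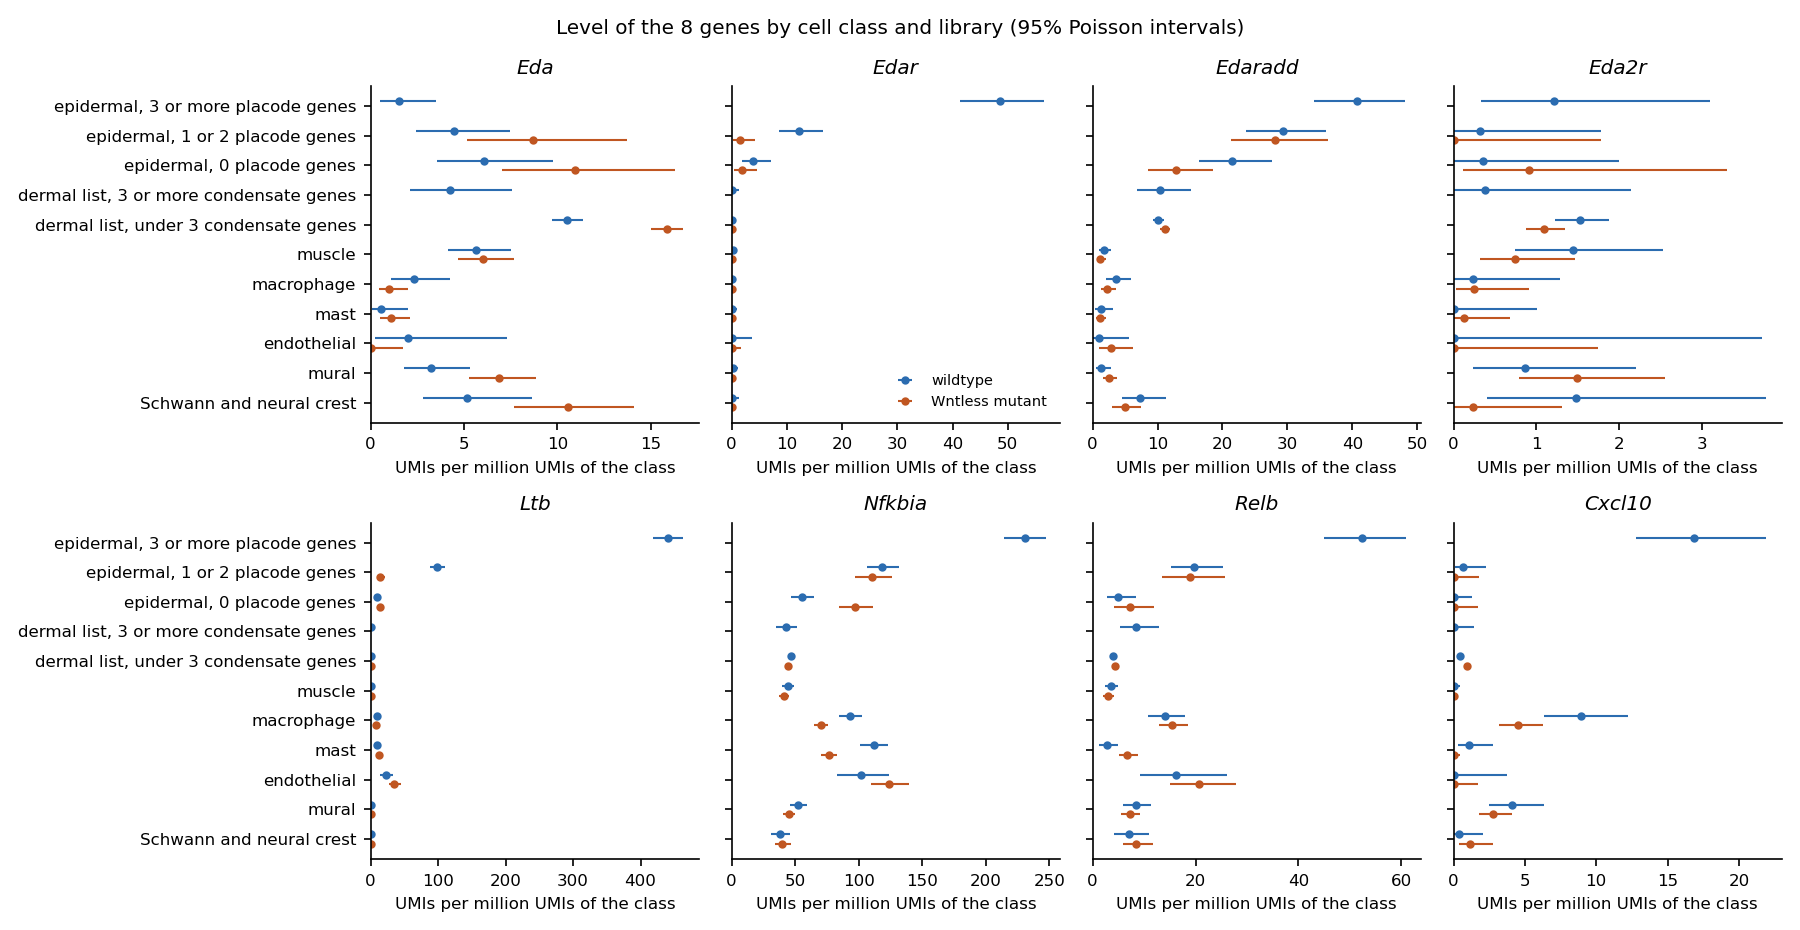
Level of each of the 8 genes (x axis, CPM, linear, a scale per gene) by cell class (y axis), with 1 point per class in the wildtype (blue) and mutant (orange) library and exact Poisson intervals as bars. In the wildtype, Edar is at 48.5 CPM in cells with 3 or more placode genes and at or near 0 outside the epidermis, while Eda is at 10.5 CPM in dermal list cells with under 3 condensate genes.

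Eda, the ligand, was the member with a higher level in the mutant epidermis. It had 36 UMIs and 3.90 CPM (2.73 to 5.39) in wildtype and 42 UMIs and 9.87 CPM (7.11 to 13.3) in mutant epidermal cells. The log2 ratio was 1.34 (0.66 to 2.02). A UMI was present in 29 of 506 wildtype (5.73%) and 37 of 160 mutant cells (23.1%), and in 2.06% and 8.97% after each cell was thinned to 8000 UMIs. The counts are low and spread over many cells, at most 5 UMIs in any wildtype and 4 in any mutant cell. In cells with no placode gene, where Eda was at 6.10 CPM (3.55 to 9.76) and 11.0 CPM (7.03 to 16.3), the ratio was 0.85 with an interval from -0.11 to 1.84, which includes no difference. In cells with 1 or 2 placode genes Eda was at 4.46 and 8.70 CPM.

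Edar, the receptor, had few UMIs outside the epidermis and few in the mutant epidermis. It had 210 UMIs, 22.7 CPM (19.8 to 26.0), in wildtype and 7 UMIs, 1.64 CPM (0.661 to 3.39), in mutant epidermal cells, 13.8-fold lower in the mutant (log2 ratio -3.79, -5.12 to -2.72). An Edar UMI was found in 136 of 506 cells (26.9%) of the wildtype and in 7 of 160 (4.38%) of the mutant at full depth. After thinning to 8000 UMIs the shares were 86 of 486 (17.7%, 14.4 to 21.4) and 4 of 156 (2.56%, 0.703 to 6.43). Fibroblasts, which should lack the gene, had a UMI in 2 of 5271 wildtype and 1 of 4955 mutant dermal list cells, at median depths of 11138 and 15525 UMIs. After thinning none of 4484 and none of 4700 had one, and the limit of 3 counts of the total allows shares of up to 0.0669% and 0.0638%. The 4 positive thinned mutant epidermal cells were therefore above the fibroblast share, and their share lay below that of the wildtype without overlap of the intervals.

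Eda2r, the receptor for the other splice form of ectodysplasin, was too low in the epidermis for a ratio. It had 6 UMIs in wildtype and 2 in mutant epidermal cells. In dermal list cells it stood at 1.48 and 1.09 CPM (92 and 87 UMIs), a log2 ratio of -0.44 (-0.87 to 0.00).

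Edaradd, the adaptor of Edar, was lower in mutant epidermal cells by a smaller factor than Edar. It had 287 and 86 UMIs, 31.1 CPM (27.6 to 34.9) and 20.2 CPM (16.2 to 24.9), a log2 ratio of -0.62 (-0.99 to -0.27). Positive cells made up 39.9% and 35.0%, and 26.1% and 13.5% once thinned. Its value sits near the 1.5-fold line, and median-of-ratios scaling put it at -0.50.

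Nfkbia, the inhibitor, was the most widely detected member. It was at 140 CPM (132 to 148) in wildtype and 104 CPM (94.4 to 114) in mutant epidermal cells, from 1291 and 442 UMIs, a log2 ratio of -0.43 (-0.59 to -0.27). Its ratio did not reach 1.5-fold. It was detected in 75.7% and 80.6% of cells, and in 58.0% and 44.2% after thinning, so the order of the 2 shares turned when depth was made equal.

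Relb, the NF-kB subunit of the non-canonical pathway, was lower in the mutant. It had 250 UMIs, 27.1 CPM (23.8 to 30.6), in wildtype and 55 UMIs, 12.9 CPM (9.73 to 16.8), in mutant epidermal cells, a log2 ratio of -1.07 (-1.51 to -0.64). The thinned share of positive cells was 20.8% in the wildtype and 8.97% in the mutant, and the unthinned share 35.6% and 23.1%.

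Ltb, which encodes lymphotoxin beta, a TNF family ligand, was the member with the most UMIs in wildtype epidermal cells. It had 1796 UMIs, 194 CPM (185 to 204), in wildtype and 60 UMIs, 14.1 CPM (10.8 to 18.1), in mutant cells, 13.8-fold lower (log2 ratio -3.79, -4.18 to -3.41). Positive cells made up 47.8% and 16.2% before and 39.7% and 9.62% after thinning. In dermal list cells, a class with 13 and 19 Ltb UMIs in all, the thinned shares were 0.201% and 0.213%.

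Cxcl10, a chemokine, was seen in few epidermal cells, and among these in the wildtype library only. The wildtype epidermis had 58 UMIs (6.28 CPM, 4.77 to 8.11) in 20 cells, and the mutant had 0 UMIs in 160 cells, with an exact Poisson upper limit of 0.867 CPM. Against 3 counts summed over the mutant class it was at least 8.91-fold lower (log2 ratio at most -3.15). One wildtype cell held 28 of the 58 UMIs, and without it the bound was -2.21. The thinned share of positive cells was 3.50% in the wildtype, and for 0 of 156 mutant cells the limit of 3 counts of the total allows up to 1.92%.

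Of the 7 measured members, 5 were lower in mutant epidermal cells (Edar, Edaradd, Ltb, Relb and Cxcl10), 1 was higher (Eda) and 1 was between (Nfkbia). Over all 11739 measured genes 18.2% were called lower and 7.04% higher, with a median log2 ratio of -0.13 against -1.07 for the members. Median-of-ratios scaling moved the median of all genes by 0.12 and left 4 of 7 members lower and 1 higher. No member changed direction under that scaling, for which the share of all genes called was not computed.

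**Figure D2:**
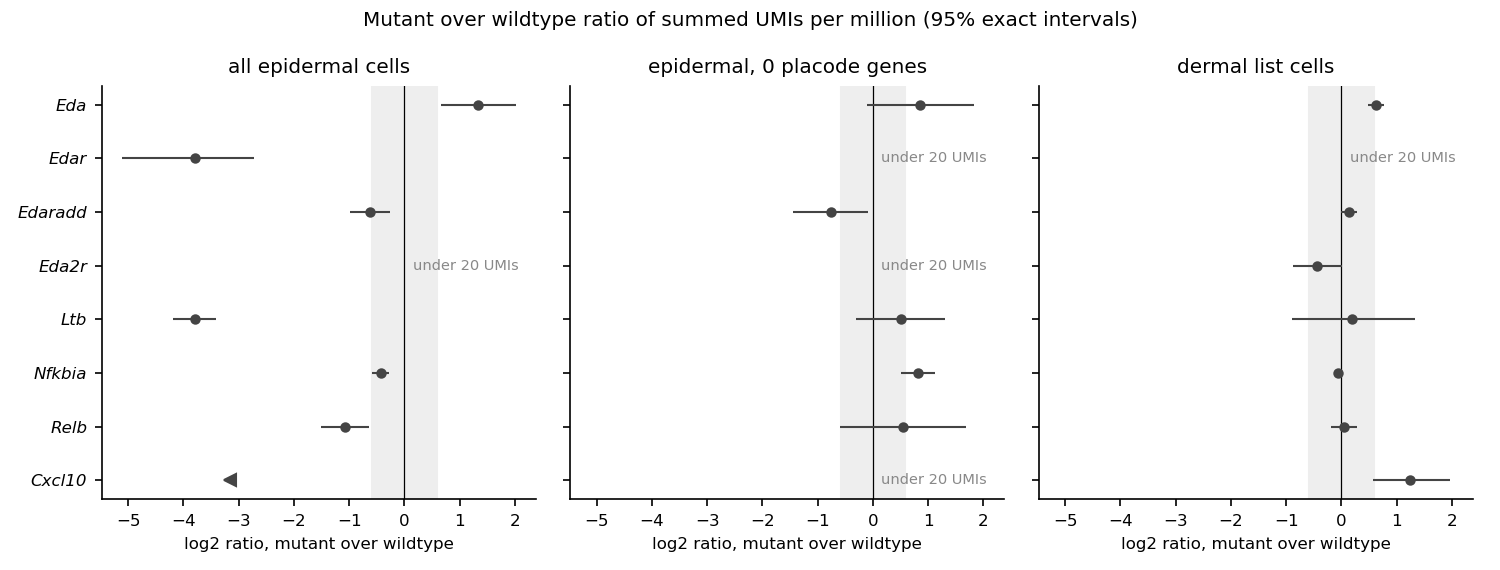
Log2 ratio of CPM, mutant over wildtype, for each measured member in epidermal cells, in epidermal cells with no placode gene and in dermal list cells; bars are exact conditional binomial intervals, the grey band is the range under 1.5-fold, and the triangle for Cxcl10 is an upper bound. Edar and Ltb both sit at -3.79 in all epidermal cells, while Ltb sits at 0.50 in cells with no placode gene and Eda at 0.63 in dermal list cells.

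Markers of other cell types differed with the genotype in these cells. The 6 macrophage markers (C1qa, C1qb, C1qc, Csf1r, Cx3cr1 and Fcer1g) summed to 75.5 CPM in wildtype epidermal cells, with all 6 detected, and to 3.29 CPM in mutant ones, with 5 of 6 detected. The 6 mast cell markers summed to 77.6 and 5.4 CPM, with 6 and 5 detected, and the 6 fibroblast markers, all detected in both, to the levels given above. In all, 31 wildtype and 3 mutant epidermal cells passed the marker rule of another cell type, 13 wildtype and 0 mutant cells that of macrophages. Without these cells and the 2 wildtype epidermal cells on the dermal list, 473 and 157 cells remained. In these the macrophage sum was 2.51 and 3.40 CPM, the mast cell sum 2.38 and 5.58 CPM and the fibroblast sum 1620 and 1360 CPM. The fibroblast genes Dcn (-0.81) and Lum (-0.73) were still lower in the mutant among these cells. The rest of that list was between, with Col1a1 at -0.20, Pdgfra at -0.41, Col1a2 at 0.16 and Col3a1 at 0.18. Among the wildtype cells of this set, Dcn was 2.18-fold higher with 3 or more placode genes than with none, and the other fibroblast genes were between. Edar was then at -3.85, Ltb at -3.89, Relb at -1.24, Edaradd at -0.72, Nfkbia at -0.57 and Eda at 1.37, so that 5 of 7 were again lower and 1 higher, where 15.4% of 11336 genes were lower and 7.55% higher. Cxcl10 had 53 and 0 UMIs there, with a bound of -3.19. The median mitochondrial share was 2.68% in wildtype and 3.62% in mutant epidermal cells. The 13 immediate early and stress genes known from tissue dissociation summed to 350 and 196 CPM in all wildtype and mutant epidermal cells. In the mutant 9 of them were lower and 2 higher (Fosb and Hspa1b), where 18.2% of 11739 genes were lower and 7.04% higher. The part of the fibroblast and stress genes in the members' ratios was not tested.

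The position of the members along the placode was read within the wildtype library, from cells with no placode gene to cells with 3 or more. Of 7 measured members 6 were higher in cells with 3 or more placode genes and 1, Eda, was lower, where 18% of 10333 measured genes were higher and 9.96% lower. This split is not independent of the pathway. Dkk4, Shh, Fgf20, Foxi3 and Wnt10b, which served to make it, are known placode genes downstream of Edar or Wnt. The count is therefore no separate test of the pathway, here or in the other comparisons by number of placode genes. Cxcl10 had UMIs only in the group with 3 or more, so it was measured through that group alone. The member median was 3.38 on the log2 scale against 0.10 for all genes. Ltb was at 9.68 CPM (6.38 to 14.1) in cells with none and at 440 CPM (418 to 464) in cells with 3 or more, 45.5-fold higher (log2 ratio 5.51, 4.96 to 6.11). Edar was at 3.95 CPM (1.97 to 7.06) and 48.5 CPM (41.3 to 56.6), a log2 ratio of 3.62 (2.74 to 4.65). Ltb was therefore the member with the widest separation among those with UMIs in both groups. The Edar interval includes the log2 ratio of Relb, given next, so Edar and Relb are not ranked.

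Relb followed the same order, with 5.02 CPM (2.75 to 8.42) and 52.5 CPM (44.9 to 60.9), a log2 ratio of 3.38. Nfkbia was at 55.2 CPM (46.9 to 64.7) and 231 CPM (215 to 248), a log2 ratio of 2.06, and was thus well detected outside placode cells too. Edaradd, at 21.5 CPM (16.4 to 27.7) and 40.7 CPM (34.1 to 48.2), had the narrowest separation among the higher members, a log2 ratio of 0.92. Cxcl10 had 0 UMIs in cells with none and 56 UMIs in 18 of the 189 cells with 3 or more, at least 15.7-fold higher against 3 counts, with 28 of the 56 UMIs in 1 cell. Eda ran the other way, from 6.10 CPM to 1.51 CPM (0.489 to 3.52), a log2 ratio of -2.02 (-3.81 to -0.52) from 17 and 5 UMIs. Without cells that passed the rule of another type, Ltb was at 5.67, Eda was under 20 UMIs, with 13 and 3, and 6 of 6 measured members were higher, where 20.6% of 9743 genes were higher and 10.8% lower.

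The number of placode genes detected, from 0 to 8, was also read one by one (the last group joins 6 to 8). Edar was at 3.95, 4.65, 24.1, 32.8, 42.9, 56.8 and 54.3 CPM in the wildtype, so that it separated between 1 and 2 genes. Ltb was at 9.68, 42.9, 187, 280, 616, 464 and 440 CPM, and so was already higher with 1 gene than with none. Relb was at 5.02, 11.9, 32.5, 40.0, 61.6, 45.7 and 59.8 CPM. The steps among cells with 3 or more genes were not in order for Ltb or Relb, and the groups there hold 33 to 67 cells. Cxcl10 was at 0, 0, 1.67, 9.99, 24.3, 40.8 and 2.36 CPM, highest in cells with 5 placode genes, where it had 33 UMIs in 49 cells, 28 of them in 1 cell. Median depth was between 13805 and 17041 UMIs in all 7 groups.

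**Figure D3:**
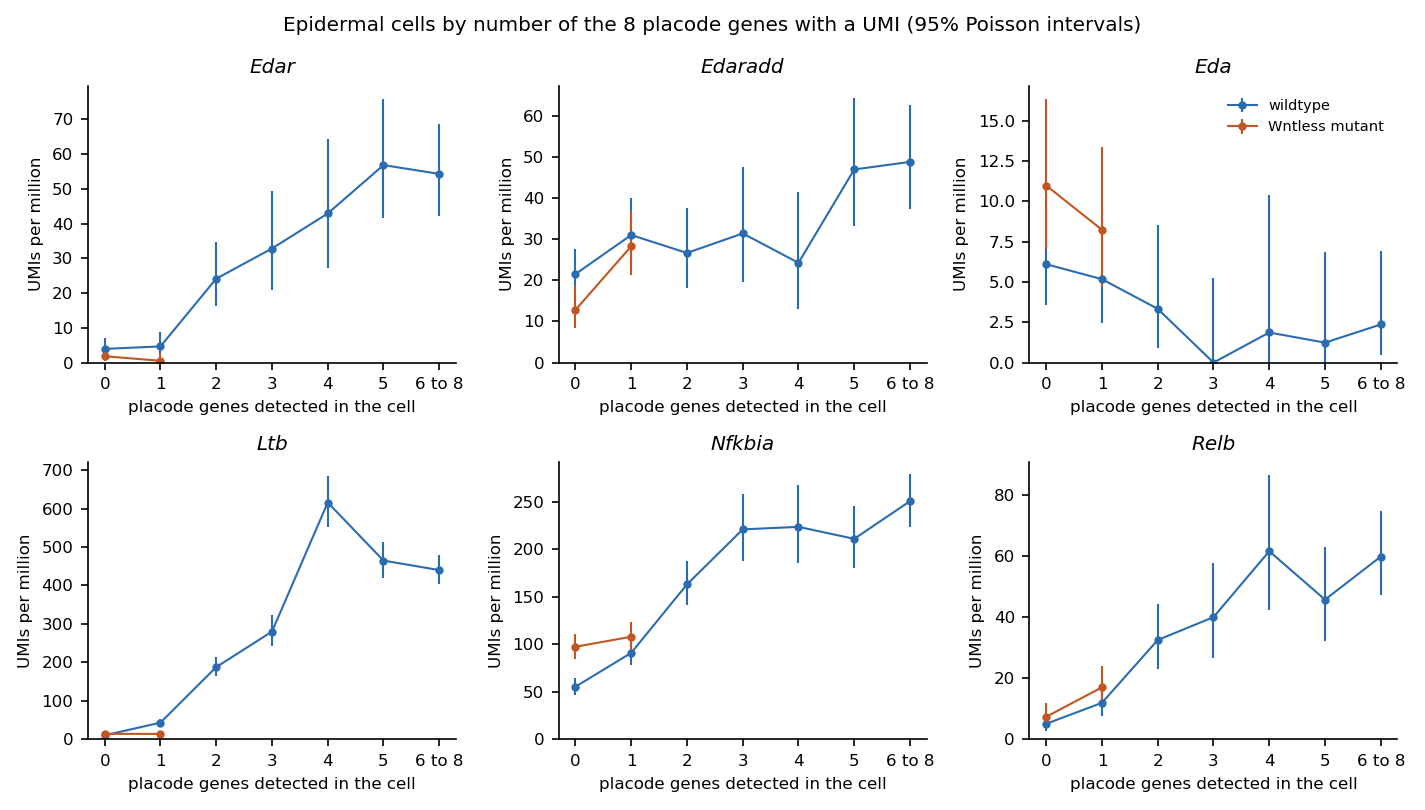
Level in CPM (y axis) of Edar, Edaradd, Eda, Ltb, Nfkbia and Relb by the number of placode genes detected in an epidermal cell (x axis), in wildtype (blue) and mutant (orange) cells with exact Poisson intervals; the 5 mutant cells with 2 placode genes are not drawn. Wildtype Edar and Ltb climb from 3.95 and 9.68 CPM with none to 54.3 and 440 CPM with 6 to 8, while mutant cells with 1 gene are at 0.514 and 13.4 CPM.

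Cells with no placode gene, 148 wildtype and 91 mutant cells, were also compared between genotypes. They are not a matched set: 5 of the 8 placode genes had no UMI in any mutant epidermal cell, so membership in this class is not independent of the genotype, and median depth was 16768 and 22398 UMIs. Of 5 measured members 1 was lower (Edaradd) and 2 were higher (Eda and Nfkbia), where 12.8% of 9525 measured genes were lower and 7.84% higher. Eda and Edaradd kept the direction they had over all epidermal cells, and Nfkbia did not. The member median was 0.54 against -0.09 for all genes. Median-of-ratios scaling, which moved that median by 0.10, left 1 of 5 lower and 4 higher. The share of all genes called under that scaling was not computed. Ltb was at 9.68 CPM in wildtype and 13.7 CPM (9.25 to 19.6) in mutant cells, a log2 ratio of 0.50 (-0.30 to 1.31), and 12 of its 30 mutant UMIs were in 1 cell. The sign of this ratio turned with the choice of cells: it was -0.67 with thinned cells and -2.00 with all cells of at most 2 placode genes. Edar had 11 and 4 UMIs, 3.95 and 1.83 CPM (0.498 to 4.68), too few for a ratio, and the thinned shares of positive cells were 4.26% and 4.60%. Cxcl10 had no UMI in either library.

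Nfkbia was at 55.2 CPM in wildtype and 97.4 CPM (84.7 to 111) in mutant cells with no placode gene, a log2 ratio of 0.82 (0.51 to 1.13). This is opposite in sign to its ratio over all epidermal cells. The thinned share of Nfkbia-positive cells was 34.8% and 35.6%, and 21 of the 213 mutant UMIs were in 1 cell and 66 in the top 5 cells. Without the top cell of each library the ratio was 0.74, and it fell short of 1.5-fold with thinned cells (0.47) and with all cells of at most 2 placode genes (0.23). In the same cells the stress list summed to 341 CPM in the wildtype and 144 CPM in the mutant. Of its 12 measured genes 10 were lower, where 12.8% of all genes were. Without the cells that passed another type's rule, Fos had 62 and 28 UMIs in place of 137 and 29. Fos, Junb, Egr1, Ier2, Hspa1a and Btg2 were still lower there. Atf3 (-0.19) was between, like Jun and Hspa1b, and Dusp1, Zfp36 and Nr4a1 had too few UMIs. The part of the stress genes in the Nfkbia ratio was not tested. Over all cells with no placode gene Edaradd was at 21.5 and 12.8 CPM, a log2 ratio of -0.75 (-1.45 to -0.08). That ratio was -0.06 when placode genes were counted after thinning. Relb was at 5.02 and 7.31 CPM in the cells with no placode gene, a log2 ratio of 0.54 (-0.59 to 1.69).

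Suprabasal cells, those leaving the basal layer, were a different share of the 2 sets of cells with no placode gene. With at least 3 of 6 suprabasal genes (Krt1, Krt10, Krtdap, Dmkn, Sbsn and Dsg1a) left out, 98 wildtype and 73 mutant cells remained. Ltb was then at 16.8 and 15.6 CPM, a log2 ratio of -0.11, and Nfkbia at 67.4 and 95.1 CPM, a ratio of 0.50 (0.14 to 0.86). Eda was at 6.86 and 12.2 CPM, a ratio of 0.83 (-0.27 to 2.03). Of 5 measured members Edaradd was called lower, at -0.79, and Eda and Relb (8 and 14 UMIs, 0.64) higher, where 12% of 8515 genes were lower and 10.4% higher.

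Mutant cells with 1 or 2 placode genes had lower levels of Edar and Ltb than wildtype cells with the same number. Edar was at 12.1 CPM in wildtype and 1.45 CPM in mutant cells (38 and 3 UMIs), a log2 ratio of -3.06. Ltb had 308 UMIs (98.2 CPM) and 30 UMIs, a log2 ratio of -2.76. These 2 were the members called lower, out of 6 measured, where 15.9% of 9886 genes were lower, and Eda, at 0.96 (-0.13 to 2.08), was called higher, as were 7.39% of genes. Edaradd (29.3 and 28.0 CPM), Nfkbia (119 and 111 CPM) and Relb (19.8 and 18.8 CPM) were between. The genes behind the class differed: in the mutant 94.2% of these cells had Wnt10b, and in the wildtype 53.8% did.

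Within the mutant library the cells with 1 or 2 placode genes differed from those with none in Relb and Edaradd. Relb was at 7.31 CPM in cells with none and 18.8 CPM in cells with 1 or 2, a log2 ratio of 1.37 (0.49 to 2.30). Edaradd was at 12.8 and 28.0 CPM, a ratio of 1.13 (0.46 to 1.84). These were 2 of 5 measured members, where 8.93% of 9062 genes were higher and 5.43% lower. Ltb (30 UMIs in each) and Nfkbia (97.4 and 111 CPM) were between, with log2 ratios of 0.08 and 0.18. In the wildtype the same step gave 4 of 6 measured members higher, where 12.4% of 10155 genes were higher and 4.68% lower: Edar 1.62, Ltb 3.34, Nfkbia 1.10 and Relb 1.98 on the log2 scale. Whether the step differs between genotypes was not tested. The mutant cells with 1 placode gene were deeper than those with none, at a median of 30426 UMIs.

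Suprabasal cells of the wildtype (97 cells) were lower in most members than the 409 other epidermal cells. Edar was at 29.2 CPM in cells with under 3 suprabasal genes and 3.04 CPM in suprabasal cells, a log2 ratio of -3.26. Ltb had 1681 and 115 UMIs, a ratio of -2.28, and Nfkbia and Relb had ratios of -1.20 and -1.28. Eda ran the other way at 0.94. Edaradd was at -0.65, and Cxcl10, with 55 and 3 UMIs, at -2.60. Thus 6 of 7 measured members were lower and 1 higher, where 11.8% of 11122 measured genes were lower and 9.13% higher. Placode cells are mostly among the cells with under 3 suprabasal genes, so this split repeats part of the placode one.

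Edar and the other members were next compared cell by cell in the wildtype epidermis, at 8000 UMIs per cell. Ltb was found in 67.4% of 86 Edar-positive and 33.8% of 400 Edar-negative cells. Nfkbia was found in 79.1% and 53.5%, and Relb in 33.7% and 18.0%. Edaradd, the partner of the receptor, was found in 27.9% and 25.8%. Eda was found in 0 of 86 Edar-positive cells, a share whose limit is 3.49% taken as 3 counts and 4.20% by the exact Clopper-Pearson method, and in 2.50% of Edar-negative ones.

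Among the cells with 3 or more placode genes these shares were close whether or not Edar was detected. Ltb was found in 75.8% of 62 and 73.6% of 121 cells, Nfkbia in 80.6% and 76.0%, and Relb in 35.5% and 36.4%. Among cells with 0 to 2 placode genes, Ltb was found in 45.8% of 24 Edar-positive and 16.5% of 279 Edar-negative cells. Cells of 1 library are not replicates, and no test was made.

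Eda had its highest level in the dermis. In dermal list cells it had 640 UMIs, 10.3 CPM (9.49 to 11.1), in the wildtype and 1264 UMIs, 15.9 CPM (15.0 to 16.8), in the mutant, a log2 ratio of 0.63 (0.49 to 0.77). As a mean over cells the ratio was 0.58, just under 1.5-fold. The ligand was thus higher in the mutant in both tissue layers. Before thinning 10.8% and 20.1% of cells were positive, and afterwards 7.76% and 11.4% after thinning. Of 7 measured members 2 were higher in the mutant dermis (Eda and Cxcl10) and 0 lower, where 10.7% of 15571 genes were higher and 5.55% lower, and the member median was 0.14 against 0.03 for all genes. Edaradd (10.1 and 11.1 CPM), Nfkbia (46.6 and 44.6 CPM) and Relb (4.14 and 4.29 CPM) had log2 ratios between -0.06 and 0.14. Ltb was at 0.209 and 0.238 CPM, and Edar had 2 and 1 UMIs.

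Cxcl10 in the dermal list had 25 UMIs (0.401 CPM) in the wildtype and 76 UMIs (0.953 CPM) in the mutant, a log2 ratio of 1.25 (0.58 to 1.96). Positive cells numbered 20 in each library, and 41 of the 76 mutant UMIs were in 1 cell. Without the top cell of each library the ratio was 0.45. Of 9 measured interferon response genes 6 were higher in the mutant dermis and 0 lower (10.7% and 5.55% of all genes), with a median log2 ratio of 1.34, among them Bst2 with 327 and 1060 UMIs (1.34). Their part in the Cxcl10 ratio was not tested.

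The dermal condensate, the cluster of fibroblasts beneath each placode, gave a within-wildtype split of the dermis, with 244 cells having at least 3 of 6 condensate genes (Sox2, Sox18, Foxd1, Gal, Prdm1 and Bmp3). No mutant dermal list cell had 3. Eda was at 10.5 CPM in the other 5027 cells and 4.24 CPM in condensate cells (629 and 11 UMIs), a log2 ratio of -1.31 (-2.32 to -0.46). Relb was at 3.95 and 8.47 CPM (236 and 22 UMIs), a log2 ratio of 1.10 (0.40 to 1.73). Nfkbia and Edaradd had ratios of -0.13 and 0.04. Eda2r had 91 and 1 UMIs, a ratio of -1.98 (-7.30 to 0.53). Thus Eda and Eda2r were called lower and Relb higher, where 19.8% of 14135 genes were lower and 17.1% higher. With condensate cells left out of the dermal list, Eda had a log2 ratio of 0.59 between genotypes, where 10.5% of 15503 genes were higher and 4.84% lower.

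Across the other marker-defined cell types the order of each member was as follows. In the wildtype Eda was highest in dermal list cells with under 3 condensate genes (10.5 CPM), then in epidermal cells with no placode gene (6.10 CPM), muscle (5.65 CPM) and Schwann and neural crest cells (5.16 CPM), and each interval overlapped that of the next. In the mutant the dermis was again first (15.9 CPM), before epidermal cells with no placode gene (11.0 CPM) and Schwann and neural crest cells (10.6 CPM). Eda was higher in the mutant in mural cells (3.22 and 6.88 CPM, log2 ratio 1.10, 0.26 to 2.02), where 13.8% of 11887 genes were called higher and 2.84% lower. It was also higher in Schwann and neural crest cells (5.16 and 10.6 CPM, ratio 1.03, 0.14 to 2.01), where 7.79% of 10899 genes were higher and 4.32% lower. In muscle it was at 5.65 and 6.04 CPM, a ratio of 0.10.

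Edar had 0 UMIs in macrophages, mast cells, endothelial cells, Schwann and neural crest cells, melanoblasts and erythroid cells of both libraries. In muscle and mural cells it had at most 2. The order of Edar in the wildtype was therefore the order of placode genes, 48.5, 12.1 and 3.95 CPM, with no overlap of the intervals.

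Ltb outside the epidermis was found in endothelial, mast and macrophage cells. In the wildtype these were at 22.2, 10.1 and 8.73 CPM, below epidermal cells with 3 or more placode genes (440 CPM) and with 1 or 2 (98.2 CPM). In the mutant the endothelial cells were first, at 35.3 CPM (27.8 to 44.3), with 24 of 75 UMIs in 1 of 97 cells. The log2 ratio in endothelial cells was 0.67 (-0.03 to 1.43), where 9.16% of 8886 genes were called higher and 7.66% lower.

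Relb was at 16.1 CPM in wildtype and 20.7 CPM in mutant endothelial cells, and at 14.0 and 15.5 CPM in macrophages, so that in the mutant these classes stood beside the epidermal cells with 1 or 2 placode genes (18.8 CPM). In mast cells Relb was at 2.73 and 6.71 CPM, a log2 ratio of 1.30 (0.31 to 2.43), where 8.92% of 10760 genes were called higher and 3.21% lower. Nfkbia in mast cells was at 112 and 76.6 CPM, a log2 ratio of -0.55, and in endothelial cells at 102 and 124 CPM, a ratio of 0.28. Cxcl10 in macrophages was at 8.96 and 4.54 CPM, a ratio of -0.98 (-1.68 to -0.29), where 8.62% of 11271 genes were called lower and 4.09% higher. Edaradd was at 17.1 CPM (6.26 to 37.1) in the 25 wildtype melanoblasts, from 6 UMIs.

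The rest of the pathway was read from lists. Of 16 genes that carry the signal from the receptor to NF-kB, all measured, 2 were lower in mutant epidermal cells and 0 higher, with a median log2 ratio of -0.37. That share is below the 18.2% of all genes called lower. Rel, which encodes the subunit c-Rel, was at -1.26 and Nfkb2, the partner of RelB, at -0.73. Tab1 and Chuk, an adaptor and a kinase of the IkB kinase step, were at -0.56 and -0.52 and did not reach 1.5-fold. Without the cells of another type Tab1, at -0.72, was called lower too, 3 of 16 against 15.4% of all genes. In cells with no placode gene 3 of 15 measured were lower, Rel (-1.24), Tab1 (-0.65) and Chuk (-0.69), a median of -0.10 where 12.8% of all genes were lower. Between wildtype cells with 3 or more and no placode genes, 7 of the 16 were higher and 0 lower, with a median of 0.49, where 18% of all genes were higher and 9.96% lower.

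Of 12 measured NF-kB response genes 9 were lower and 0 higher in mutant epidermal cells, a median of -0.81, where 18.2% of all genes were lower and 7.04% higher. Tnfaip3, which encodes the feedback inhibitor A20, had 70 and 4 UMIs (log2 ratio -3.01), the chemokine gene Cxcl1 had 51 and 4 (-2.55), and the survival gene Birc3 had 85 and 9 (-2.12). The chemokine gene Ccl2 had 56 and 1 UMIs (-4.69, -10.0 to -2.15), but 3 and 1 without the cells that passed another type's rule. Without those cells 6 of 11 measured were lower (15.4% of all genes), a median of -0.74, with Tnfaip3 at -2.98, Cxcl1 at -2.60 and Birc3 at -2.20. In cells with no placode gene 1 of 6 measured was lower (Ier3, -1.10), a median of -0.35, near the 12.8% of all genes. Tnfaip3, Cxcl1, Birc3 and Ccl2 had too few UMIs there for a ratio, so the medians are not over the same genes. In wildtype cells with 3 or more against no placode genes 10 of 12 were higher and 1 lower (Sod2, -0.74), a median of 1.55, against 18% and 9.96% of all genes.

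Of 8 measured TNF family ligands and receptors 5 were lower in mutant epidermal cells and 0 higher, a median of -0.88, where 18.2% of all genes were lower and 7.04% higher. Tnf itself had 70 and 2 UMIs (log2 ratio -4.01, -7.08 to -2.10), and 55 and 2 without the cells of another type. Tnfrsf19, the Edar relative TROY, was at -1.16, and Ltbr, the receptor of the lymphotoxin that Ltb forms part of, at -0.60. The other two were Ngfr (-1.81) and Tnfsf12 (-1.37). Without the cells of another type 3 of 7 measured were lower (Tnf, Tnfrsf19 and Ngfr), a median of -0.45, where 15.4% of all genes were. Tnfrsf21 was at -0.54 and did not reach 1.5-fold.

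Of 9 known placode genes downstream of Edar or Wnt, all measured, 7 were lower in mutant epidermal cells and 2 higher (Wnt10a, 0.84, and Fst, 0.80), a median of -2.60, against 18.2% and 7.04% of all genes. Dkk4, a Wnt inhibitor, had 2285 and 0 UMIs, Shh 373 and 0, and Fgf20 344 and 0. These 3, with Foxi3 and Wnt10b, were among the 7 lower and also served to split the cells. The other lower genes did not: Ccn2 had 270 and 11 UMIs (log2 ratio -3.50) and Madcam1 had 184 and 14 (-2.60). In the dermal list the transduction list had 1 of 16 lower (Rel, -0.65) and 0 higher, near the 5.55% of all genes called lower there. The response list there had 2 of 15 lower (Icam1, -0.66, and Cxcl1, -0.69) and 1 higher (Bcl3, 0.69), against 5.55% and 10.7% of all genes. The medians of the 2 lists were -0.03 and -0.12.

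**Figure D4:**
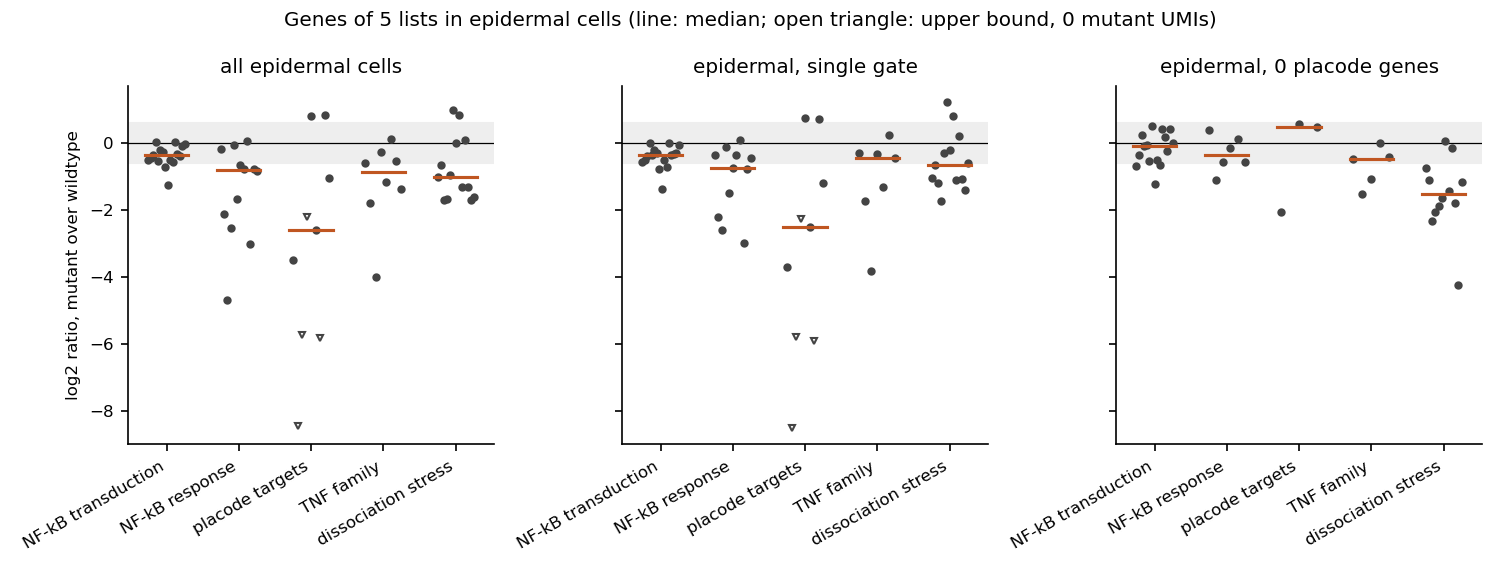
Log2 ratio, mutant over wildtype (y axis), of each measured gene of 5 lists in all epidermal cells, in those that passed no other type's rule (single gate) and in those with 0 placode genes; lines are list medians, open triangles are upper bounds and the grey band is the range under 1.5-fold. The NF-kB response list has a median of -0.81 in all epidermal cells, -0.74 in single-gate cells and -0.35 in cells with no placode gene. These medians are not over the same genes: Tnfaip3, Cxcl1, Birc3 and Ccl2 were not measured in cells with no placode gene.

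Genes whose level pattern was most like that of Eda, Edar and Ltb were looked up over 21 class and library points, with Pearson's r of log2(CPM + 1) among 14912 genes. The points share libraries and depth, and the values are a description. For Edar they were Ascl4 (0.98), Serpinb1b (0.97), S100a9 (0.96), Ccr10 (0.96) and 8030423F21Rik (0.95). For Ltb they were Nfkbia (0.94), St14 (0.89), Serpinb6b (0.85), Icam1 (0.83) and Tdrp (0.83). For Eda they were Enox1 (0.93), Lrig1 (0.91), Gas1 (0.90), Adgrl3 (0.89) and Phip (0.89). Nfkbia is thus the member nearest to Ltb, while no member was among the 5 nearest to Eda or Edar.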

How the data were processed

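Mouse E14.5 skin was measured by 3′ single-cell RNA sequencing in 1 wildtype and 1 Wntless mutant library. Per the file headers, Cell Ranger 6.1.2 wrote the deposited matrices, whose values are raw UMI counts of each gene in each barcode, and mm10 and Seurat are named in the submitters' processing notes. The deposited barcode, feature and dermal list files hold other values, the names of cells and genes, and how the dermal cells were chosen is not given in the sources used here. The matrices hold 112593376 and 159841679 UMIs, and median depth was 11341 and 14602 UMIs per barcode.

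From the counts, cells were classed by marker genes. A type needed at least 4 of 6 of its markers (3 for muscle and melanoblasts, 4 of 5 for erythroid cells, which had 9 and 17 cells). Dermal cells were those on the authors' lists that passed no marker rule. No doublet caller was run. Barcodes outside the epidermal class that passed more than 1 rule, 50 wildtype and 82 mutant, were left out of all classes. Epidermal cells that passed another type's rule were kept, and were left out as an alternative. UMIs were summed per class and library and divided by the class total (CPM), with exact Poisson intervals. Ratios have exact conditional binomial intervals, were made from 20 UMIs in both groups together, and used 3 counts over the class where 1 group was at 0. Shares have exact Clopper-Pearson intervals, and a share of 0 has the limit that 3 counts would give. Shares were also computed after thinning to 8000 UMIs with shallower cells left out (20 wildtype and 4 mutant epidermal cells). The interval code was tested on simulated data. Promoters came from the RefSeq table (GRCm38.p6), and gene names from the feature files.

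The members and gene lists were chosen with earlier results of these data known. Named list genes were up to 4 per list with 50 or more epidermal UMIs and the largest absolute log2 ratio, beside all members, Wls and the 5 genes most like Eda, Edar and Ltb. Other genes named because a count was small, and Ptprc, were chosen after their values were seen. Alternatives were other scalings, gates, filters, thinning depths and fold thresholds. Python 3.11.15, numpy 2.4.6, scipy 1.17.1, pandas 2.3.3 and matplotlib 3.10.9 were used.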

Additional observations from a re-analysis of the deposited data

Results flagged for a closer look

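The log2 ratio of Cxcl10, mutant over wildtype, differed in sign between the tissue layers. It was at most -3.15 in epidermal cells (58 and 0 UMIs) and 1.25 in dermal list cells (25 and 76 UMIs). The difference was not tested, since each genotype has 1 library. In the epidermis 28 of the 58 wildtype UMIs, and in the dermis 41 of the 76 mutant UMIs, were in 1 cell.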

How the results depend on the processing

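No paired analysis was possible because each genotype has 1 library. No member ratio past 1.5-fold changed sign under any alternative run. Of 71 values of 7 members in epidermal cells 65 stayed within the counting interval, as did 39 of 46 values of 5 members in cells with no placode gene and 41 of 43 in dermal list cells. In epidermal cells Edar ranged from -3.99 to -3.12, Ltb from -4.27 to -3.61, Relb from -1.38 to -0.95, Edaradd from -1.09 to -0.50, Nfkbia from -0.85 to -0.31 and the Cxcl10 bound from -3.19 to -1.53. Eda was at 2.14 when cells were thinned to 8000 UMIs. The count of members lower in cells with no placode gene, 1 as reported, was 0 when placode genes were counted after thinning or without Wnt10b, and 2 with cells of at most 2 placode genes or with thinned cells. There, Ltb ranged from -2.00 to 0.60, Relb from -0.04 to 0.88, Nfkbia from 0.23 to 0.92, Edaradd from -2.21 to -0.06 and Eda from 0.64 to 2.57, higher under each alternative run. In the dermal list 1 member was lower (Eda2r, -0.60) without cells with a condensate gene. For these counts the share of all genes called under the same setting was not computed. The share of wildtype epidermal cells with Edar was 10.5% at 5000 UMIs, 21.9% at 12000 UMIs and 26.9% without thinning, and the mutant share was 0.637% at 5000 UMIs. These alternatives change the depth or the cells counted, and the cause was not tested further. Eda2r in the epidermis (6 and 2 UMIs) and Edar in cells with no placode gene (11 and 4) had too few UMIs for a ratio.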

Other observations

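Ltb was also found in barcodes that passed no marker rule and were on no dermal list, 1863 wildtype and 3633 mutant barcodes with median depths of 6820 and 5152 UMIs. It had 385 UMIs (27.1 CPM) in the wildtype and 641 UMIs (21.0 CPM) in the mutant, in 54 and 71 positive barcodes. Ptprc, the pan-leukocyte gene for CD45, was detected in 33 of those 54 and 65 of those 71, which held 241 and 595 of the Ltb UMIs. No epidermal marker was detected in 39 and 66 of them. These barcodes had median depths of 12294.5 and 18354 UMIs, above the rest of their class, and enter no comparison here.

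Tnfrsf11a, the receptor RANK, was lower in the mutant dermal list, with 104 UMIs in the wildtype and 8 in the mutant (log2 ratio -4.05). It was the 1 gene of 13 measured TNF family genes called lower there, where 5.55% of all 15571 genes were lower. It was named after its values were seen.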
